A study of Mus musculus with 12 samples.

Results

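The 36 genes described here make up the complement system as a fixed list: the recognition proteins, proteases and components of its classical, lectin and alternative routes, the terminal components, the fluid-phase and membrane regulators, and a pair of anaphylatoxin receptors. The rule takes them by gene symbol and uses no measured value, although the list was drawn up with earlier results of these data known. They come from 55385 Ensembl gene identifiers, of which 15090 had enough counts to be tested. All 36 were matched, 34 of them had at least 1 estimated count, and 31 were tested.

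RNA was sequenced from mouse primary hepatocytes, parenchymal liver cells freshly isolated from 3 mice (mouse 1, 2 and 3) and treated for 48 hours with siRNA. Each mouse gave 1 library in each of 4 groups: control siRNA (siCon), siRNA against Hnf4a (siHnf4a), siRNA against Cebpa (siCebpa), and both siRNAs (the double knockdown). HNF4A and C/EBPA are transcription factors that drive hepatocyte genes, and the series as a whole concerns the stability of albumin transcription. All 12 cultures, controls included, grew on collagen. Their medium was Williams' E, supplemented with insulin-transferrin-selenium, 10% fetal bovine serum and 100 nM dexamethasone, a glucocorticoid. The sources used here do not give the strain, age or sex of these mice. The replicates of a group are 3 animals, and the 4 groups share the same 3 animals.

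Complement is a cascade of plasma proteins, made largely by hepatocytes, that marks and lyses microbes. C1q (on antibody) or mannose-binding lectins (on sugars) activate serine proteases that cleave C4 and C2, while factor B and factor D form the alternative loop, and all routes meet at C3. Cleaved C3 leads to cleavage of C5 (gene Hc in mouse) and to a pore of C5b to C9. Regulators in plasma and on cell membranes stop this on host cells. C1q, properdin and the anaphylatoxin receptors are known mainly from macrophages and other myeloid cells rather than hepatocytes.

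Library totals ranged from 22453445 to 25008195 estimated counts. Hnf4a was 18.9, 20.9 and 16.6 TPM (a length-corrected level) in siHnf4a and 54.3, 116 and 138 TPM in siCon, mouse 1 to mouse 3, and Cebpa was 17.5, 16.3 and 13.7 TPM in siCebpa against 103, 127 and 111 TPM. In the double knockdown Hnf4a was 13.6, 11.6 and 11.3 TPM, but Cebpa was 63.0, 52.8 and 47.9 TPM, 3.14-fold higher than in siCebpa (edgeR quasi-likelihood test, log2 fold change 1.65 ± 0.13 SE, Benjamini-Hochberg adjusted p = 5.11e-05). The double knockdown thus retained more Cebpa than siCebpa, in every mouse. The 8 hepatocyte markers (Alb, Ttr, Apoa1, Trf, Cps1, Tat, Cyp2e1, Ahsg) summed to between 25625 and 31501 TPM in siCon and between 23580 and 26293 TPM in siCebpa. Their sums were 15866 to 20101 TPM with Hnf4a siRNA and 12262 to 15220 TPM with both siRNAs. One by one the markers did not all follow the sum. With Hnf4a siRNA 3 of the 8 had log2 changes below 0 (median 0.16), with Trf (transferrin) alone called lower and none higher, and in a model with the mouse as a block Cps1, Tat and Ahsg were called higher. With Cebpa siRNA 3 of 8 were below 0 (median 0.073), and with both 5 of 8 (median −0.63), where Trf and Apoa1 were called lower. With the mouse as a block, 2 were called lower with Cebpa siRNA (Cps1 and Tat). In the double knockdown 5 were then called lower (Alb, Ttr, Apoa1, Trf and Cyp2e1) and 1 higher (Tat).

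In control cultures the complement genes ranged from 0 TPM (Cfd and C7) to 13398 TPM (Clu in mouse 3). Clu (clusterin, a chaperone that blocks pore assembly) ranked first at 4883, 9529 and 13398 TPM. C3, the component on which all routes meet, followed at 2443, 1880 and 1785 TPM. Mbl2, a mannose-binding lectin, was at 698, 647 and 929 TPM, and Cfb (factor B, the protease of the alternative C3 convertase) at 693, 593 and 576 TPM. Neighbours in this order were not always separable: the Mbl2 and Cfb ranges overlapped, as did those of C4b (126 to 147 TPM) and C1s1 (117.5 to 167 TPM), while Cfi (109 to 117.3 TPM) lay just below both. Without Clu and C3 the other 34 genes summed to 2626 ± 191 TPM (SD, n = 3).

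Terminal components were low in comparison, with Hc at 8.60 to 10.9 TPM, C8g at 7.59 to 12.5 TPM and C6 at 0.250 to 2.11 TPM. The genes known mainly from macrophages were low in control libraries: C1qa 0.967 to 2.58, C1qb 1.05 to 3.80, C1qc 1.57 to 4.57, Cfp (properdin) 3.21 to 4.25, C3ar1 0.190 to 0.296 and C5ar1 0.0486 to 0.346 TPM. Cfd (factor D, an adipocyte product) and C7 were listed at 0 in all 12 libraries. Colec10 and Colec11, the collectins of liver and kidney, did not exceed 0.0416 and 0.144 TPM in any library. Cfd, C7, Colec10, Colec11 and C5ar1 were too low to test, in every group, so no statement on a change is made for them.

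**Figure D1:**
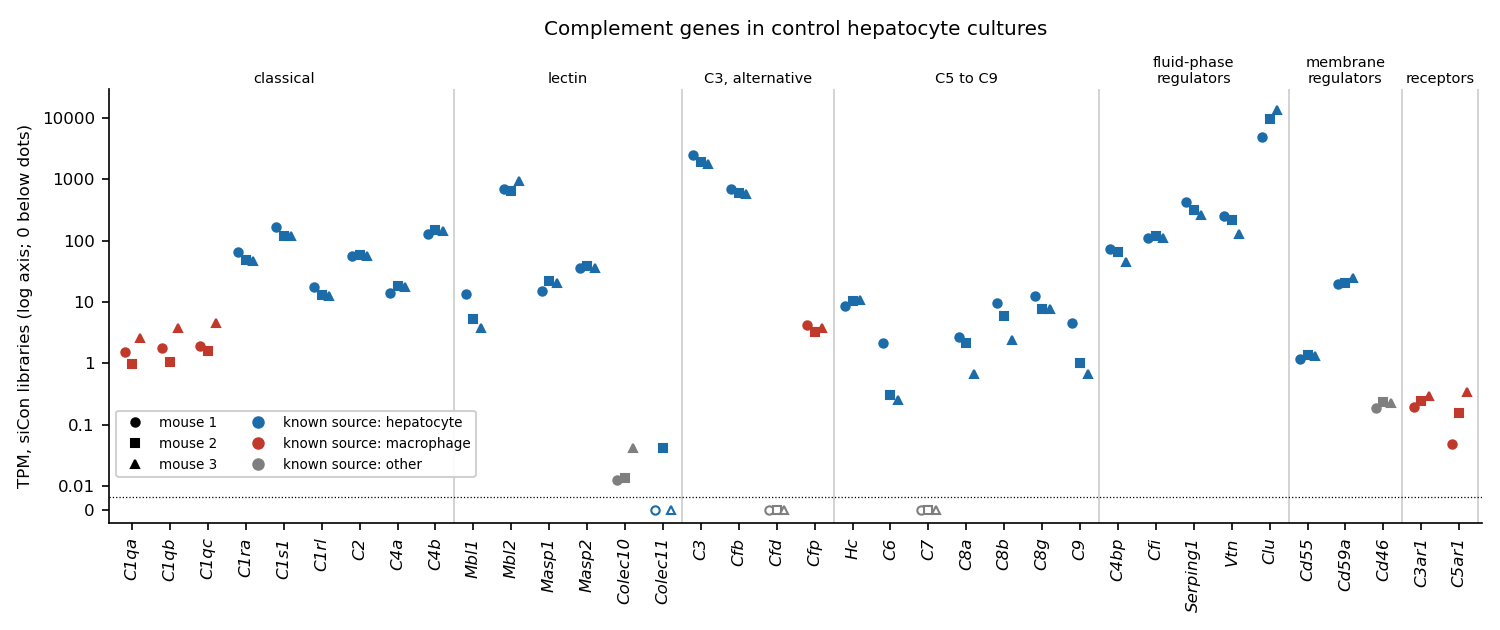
TPM of the 36 complement genes in the 3 siCon libraries (log axis, 1 symbol per mouse, values of 0 drawn as open symbols below the dotted line), ordered by role and coloured by the cell type the gene is best known from. Clu, C3, Mbl2 and Cfb are the highest, and Cfd and C7 are at 0 in every mouse.

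The genes lie partly in clusters. C2 (chr17:34862604-34898265), Cfb (chr17:34856374-34862518), C4a (chr17:34809092-34823464) and C4b (chr17:34728380-34743882) are neighbours on chromosome 17 (GRCm38, GENCODE M21, all on the minus strand). C1ra, C1rl and C1s1 are neighbours on chromosome 6, C8a and C8b on chromosome 4, the C1q chains elsewhere on chromosome 4, and C6, C7 and C9 are on chromosome 15. C4bp, Cd55 and Cd46 share chromosome 1. Strand use in counting was not given in the sources used here, and Masp2 overlaps Tardbp, C8g overlaps Fbxw5, Masp1 overlaps Rtp4 and C2 overlaps Zbtb12 on the opposite strand. On the same strand, the annotated gene Gm20547 overlaps both C2 and Cfb. Whether reads were shared with it was not tested.

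Upstream sequences are shown for 3 genes the results turn on: Hc, which fell in all 3 knockdowns, Mbl2, which fell with Hnf4a siRNA and not with Cebpa siRNA, and C3, whose level did not pass the test in any comparison. RefSeq's promoter table (GRCm38.p6) held 26 of the 36 genes. It lacked C1qa, C2, C4a, C4b, Cfb, Cfi, Clu, Colec10, Masp1 and Serping1, which were therefore not searched. C2 and Cfb, both called with Hnf4a siRNA below, are among these. Windows from 250 bases before to 50 after the start were searched on both strands for CAAAGTCCA and CAAAGGTCA, textbook direct-repeat sites of HNF4A, and for TTGCNNAA, which covers the textbook C/EBP palindrome and was added after the data were seen. In lower case below are the 250 bases before the start, 5′ to 3′ on the strand of the gene, with any match in capitals.
Hc (chr2:35061413-35061662, minus strand): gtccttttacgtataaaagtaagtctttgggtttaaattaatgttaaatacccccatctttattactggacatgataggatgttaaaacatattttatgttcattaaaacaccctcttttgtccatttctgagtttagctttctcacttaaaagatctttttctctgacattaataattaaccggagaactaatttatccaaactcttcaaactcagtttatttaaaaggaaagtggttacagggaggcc
Mbl2 (chr19:30232678-30232927, plus strand): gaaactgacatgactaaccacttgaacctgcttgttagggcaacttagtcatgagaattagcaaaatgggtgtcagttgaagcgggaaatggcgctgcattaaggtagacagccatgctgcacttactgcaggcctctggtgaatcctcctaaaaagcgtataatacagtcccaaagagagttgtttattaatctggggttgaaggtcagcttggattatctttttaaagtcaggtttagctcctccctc
C3 (chr17:57228137-57228386, minus strand): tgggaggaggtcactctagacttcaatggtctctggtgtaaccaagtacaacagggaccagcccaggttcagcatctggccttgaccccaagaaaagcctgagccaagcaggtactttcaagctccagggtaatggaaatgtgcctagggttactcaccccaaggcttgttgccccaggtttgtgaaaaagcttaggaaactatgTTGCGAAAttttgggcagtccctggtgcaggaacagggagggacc

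CAAAGTCCA was found for none of the 26 genes searched and for 0.555% of 27025 genes, and CAAAGGTCA was in 1 (C1rl, 0.544% of all genes). TTGCNNAA was in 5 (C1ra, C1rl, C1s1, C3 and C9) against 12.2% of all genes, and the C3 match, TTGCGAAA, starts 45 bases before the start site. TTGCNNCAA, which has 1 base more between its ends, was in 2 (C6 and C7, 2.38% of all genes). A match is only a stretch of letters, and the absence of one says nothing of the factor.

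Each comparison was tested with edgeR over all 15090 genes at a Benjamini-Hochberg adjusted p of 0.05, once with 4 group means (the group-means model) and once with the mouse as an added block (the mouse-block model). Fold changes are on the log2 scale of estimated counts, with the SE. The block is reported beside a result where it changes the call, because the cultures of a mouse deviated together.

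No tested complement gene was called higher than siCon in any knockdown by either model (edgeR). With Hnf4a siRNA 4 of the 31 fell in the group-means model, where 14.5% of all genes were called, and 17 fell in the mouse-block model, where 30.0% were called. With Cebpa siRNA 2 fell (4.67% of all genes called), and 12 in the mouse-block model (16.8%). In the double knockdown 10 fell (14.0%), and 19 in the mouse-block model (29.5%). Over all genes the calls were 1093 higher and 1100 lower with Hnf4a siRNA, 444 and 260 with Cebpa siRNA, 1041 and 1076 with both. Without adjustment, p fell below 0.05 for 1 tested gene on the higher side (Cd46 with Hnf4a siRNA) in the group-means model, and for 1 in the mouse-block model (C8g with Cebpa siRNA). DESeq2, and limma on TPM, called none higher.

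The median log2 fold change over the 31 tested genes was −0.67 with Hnf4a siRNA, −0.48 with Cebpa siRNA and −0.93 with both, beside medians over all tested genes of 0.00017, 0.0013 and 0.00049. Values were below 0 for 27, 28 and 30 of the 31. All 3 knockdown values lay below all 3 siCon values for 12, 7 and 19 of the 31, where 16.9%, 10.1% and 16.3% of all tested genes showed this. These 3 comparisons share their siCon libraries. Fewer hepatocytes in a culture and less RNA per cell cannot be told apart in bulk RNA.

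**Figure D2:**
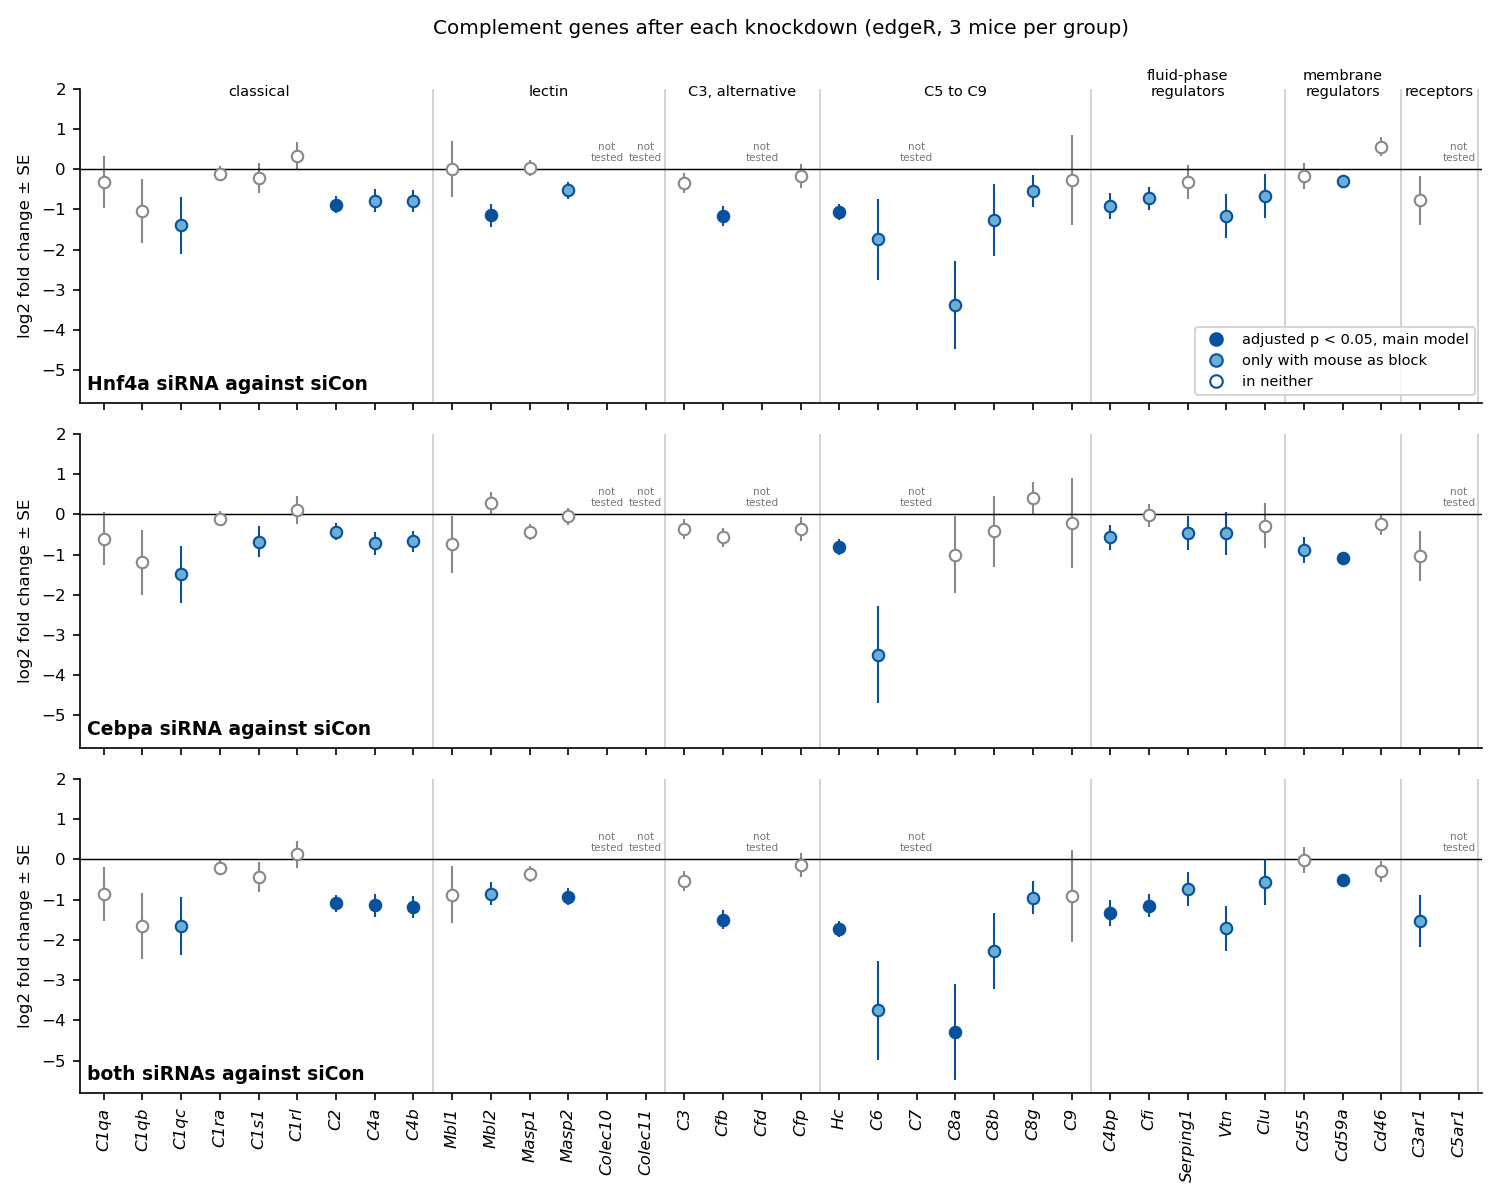
Log2 fold change against siCon (points, with SE bars) of each complement gene in the 3 knockdowns, by role. Dark points passed adjusted p 0.05 in the group-means model (4, 2 and 10 genes), light blue points only with the mouse as a block, and open points in neither. Few points lie above 0 and none of those is filled.

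Of the 9 classical-route genes, 1 (C2) fell with Hnf4a siRNA, 0 with Cebpa siRNA and 3 (C2, C4a and C4b) with both, and the mouse-block model called 4, 5 and 4. C2, the protease subunit of the C3 convertase, was 56.9, 57.5 and 56.1 TPM in siCon, 37.1, 31.5 and 27.1 TPM in siHnf4a, 50.2, 38.7 and 25.3 TPM in siCebpa, and 34.4, 23.9 and 24.8 TPM in the double knockdown. The siHnf4a and double knockdown values all lay below the control values. C2 fell by 0.88 ± 0.21 on the log2 scale with Hnf4a siRNA (adjusted p = 0.0173) and by 1.09 ± 0.21 with both (adjusted p = 0.00619). With Cebpa siRNA the log2 change was −0.43 ± 0.21 (adjusted p = 0.269), a call only in the mouse-block model (−0.47 ± 0.13, adjusted p = 0.0292). The siHnf4a call on C2 was lost without siCon mouse 2, siHnf4a mouse 2 or siHnf4a mouse 3 (adjusted p 0.0653 to 0.0762).

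C4b, complement C4, was 126, 147 and 145 TPM in siCon, 99.6, 79.9 and 64.9 TPM in siHnf4a, 111, 66.8 and 57.3 TPM in siCebpa, and 70.7, 52.1 and 62.9 TPM in the double knockdown. Every knockdown value was below every control value. C4b fell by 1.18 ± 0.27 with both siRNAs (adjusted p = 0.0145). With 1 siRNA the group-means model did not call it and the mouse-block model did: −0.84 ± 0.20 for Hnf4a (adjusted p = 0.00871, against 0.0729 without the block) and −0.75 ± 0.20 for Cebpa (adjusted p = 0.0268, against 0.180). DESeq2, without a block, also called C4b with Hnf4a siRNA (adjusted p = 0.0226), and without siCebpa mouse 1 the group-means model called it with either siRNA (adjusted p = 0.0236 and 0.0348). C4a (the sex-limited protein gene, annotated as a processed transcript) had −1.14 ± 0.29 with both siRNAs (adjusted p = 0.0245), and with 1 siRNA was called by the mouse-block model and not by the group-means model (adjusted p 0.0239 and 0.0488 with the block). DESeq2 called C4a with Hnf4a siRNA (adjusted p = 0.0493), and leaving out siCebpa mouse 1 gave calls with either siRNA (adjusted p = 0.0384 and 0.0429). The C4a and C4b transcripts, 5371 and 5379 bases long, are 95.9% identical, and 48.9% of the 31-base words of C4a are in C4b, so reads may be split between them. Their summed counts fell by 1.18 ± 0.27 with both siRNAs (adjusted p = 0.0148), and C4a made up 9.82% to 11.0% of their TPM in siCon and 10.9% to 13.4% in the double knockdown. Leaving out siCon mouse 2 or double-knockdown mouse 2 ended the C4b call (adjusted p 0.0524 and 0.0689), and these or siCon mouse 3 or double-knockdown mouse 3 the C4a call (adjusted p 0.0596 to 0.102).

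C1ra, the C1r protease, was 46.6 to 64.0 TPM in siCon and 42.1 to 48.1 TPM in the double knockdown, with a log2 change of −0.20 (95% interval −0.62 to 0.22). C1s1, the C1s protease, was 167, 120 and 118 TPM in siCon and 122.9, 61.9 and 36.5 TPM in siCebpa, where mouse 3 was lowest. With Cebpa siRNA it passed in the mouse-block model (−0.78 ± 0.23, adjusted p = 0.0441), against an adjusted p of 0.349 without the block. Without siCebpa mouse 1 the group-means model also called C1s1, at −1.35 (adjusted p = 0.0229). C1rl, a C1r-like protease, had positive values in all 3 knockdowns, from 0.11 to 0.34, and passed in none.

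The C1q chains, the antibody-sensing head of the classical route, were low and had negative log2 changes in all 3 knockdowns, and of the 3 only C1qc passed, with the block. C1qc was 1.93, 1.57 and 4.57 TPM in siCon, 0.915, 0.234 and 1.87 in siHnf4a, 0.322, 0.553 and 1.65 in siCebpa, and 1.15, 0.616 and 0.701 in the double knockdown. Its mouse-block changes were −1.45 ± 0.45, −1.53 ± 0.46 and −1.52 ± 0.47 (adjusted p = 0.0333, 0.0453 and 0.0319). C1qb was 1.74, 1.05 and 3.80 TPM in siCon and 0.619, 0.626 and 0.791 TPM in the double knockdown (mouse-block adjusted p = 0.0528). C1qa was 1.51, 0.967 and 2.58 TPM in siCon and 0.849, 0.514 and 1.32 TPM in the double knockdown (mouse-block adjusted p = 0.109). Mouse 3 had the highest C1qa and C1qb in all 4 groups.

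Most macrophage markers, like the C1q chains, had negative log2 changes in the 3 knockdowns. The 14 Kupffer cell and macrophage markers include Cd68, which was at 61.5 to 551 TPM and followed the mouse (highest in mouse 1 in every group). Cd68 had values above 0 with Hnf4a siRNA, Cebpa siRNA and both (0.64, 0.26 and 0.43), called by neither edgeR model. The other 13 summed to between 17.0 and 24.9 TPM in siCon, against 8.13 to 14.0 TPM with Hnf4a siRNA, 10.3 to 11.1 TPM with Cebpa siRNA and 6.79 to 11.9 TPM with both. Within a group their order by mouse could differ from that of C1q. In siCebpa, mouse 1 to mouse 3, these 13 summed to 11.1, 10.3 and 10.4 TPM, and the 3 C1q chains to 0.701, 2.09 and 5.23 TPM. With Cd68 included, the marker ranges were 124 to 363, 132 to 565, 71.9 to 456 and 132 to 492 TPM. Of the 14, 11 were tested, and 10 of these had values below 0 in each knockdown. Fcer1g was the 1 called in the group-means model with Cebpa siRNA and with both, and 3, 4 and 6 were called lower in the mouse-block model. Timd4, a marker of resident Kupffer cells, was listed at 0 in 10 of the 12 libraries. Clec4f, the other defining marker, was 0.267 to 1.61 TPM in siCon and 0.0822 to 0.132 TPM in the double knockdown. Only the mouse-block model called Clec4f lower there (adjusted p = 0.0171, against 0.177 without the block). The part of a changing number of macrophages in the C1q values was not tested.

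Of the 4 lectin-route genes tested, 1 fell with Hnf4a siRNA, 0 with Cebpa siRNA and 1 with both (2, 0 and 2 in the mouse-block model). Mbl2, the main mannose-binding lectin here, was 373, 257 and 385 TPM in siHnf4a and 425, 264 and 540 TPM in the double knockdown, all below its 647 to 929 TPM in siCon, while siCebpa had 816, 615 and 1002 TPM. Mbl2 fell by 1.15 ± 0.29 with Hnf4a siRNA (adjusted p = 0.0234), to 45.2% of control. With Cebpa siRNA the value was 0.27 ± 0.28 (adjusted p = 0.654). The direct comparison of siHnf4a with siCebpa was −1.42 ± 0.29 (adjusted p = 0.00850), and that of the double knockdown with siCebpa −1.13 ± 0.29 (adjusted p = 0.0281). With both siRNAs against siCon the change of −0.85 ± 0.29 passed with the block and not in the group-means model (adjusted p = 0.000268 and 0.0726). DESeq2 called this change of Mbl2 (adjusted p = 0.0187), as did edgeR without a low-count filter (0.0392) or without double-knockdown mouse 3 (0.0472). The siHnf4a call was lost without siCon mouse 3, siHnf4a mouse 2 or siHnf4a mouse 3 (adjusted p 0.0516 to 0.0968), and that of the double knockdown against siCebpa without siCebpa mouse 3 or double-knockdown mouse 1 or 2 (adjusted p 0.0656 to 0.0997).

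Masp2, the protease that cleaves C4 after lectin binding, was 35.2, 38.0 and 36.1 TPM in siCon, 28.3, 22.6 and 19.6 in siHnf4a, 37.5, 28.2 and 27.4 in siCebpa, and 24.0, 15.9 and 14.2 in the double knockdown. The siHnf4a and double knockdown values lay below control without overlap. Masp2 fell by 0.93 ± 0.21 with both siRNAs (adjusted p = 0.0159) and by 0.87 ± 0.21 in the double knockdown relative to siCebpa (adjusted p = 0.0233). With Hnf4a siRNA alone its −0.52 ± 0.21 was not called (adjusted p = 0.13), whereas the mouse-block model gave −0.54 ± 0.12 (adjusted p = 0.00629). Both calls were lost without double-knockdown mouse 2 or 3 (adjusted p 0.0645 to 0.101), and the call against siCebpa also without siCebpa mouse 1 or 2 (adjusted p 0.0510 and 0.0590). Masp1, the initiating lectin protease, was 15.1 to 22.2 TPM in siCon and 11.4 to 13.7 TPM in siCebpa, and passed in no comparison. Mbl1, the other mannose-binding lectin, was 13.2, 5.32 and 3.77 TPM in siCon and 5.82, 4.85 and 1.702 TPM in the double knockdown, and also passed in none.

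C3 itself was not called in any of the 7 comparisons by either model. Its TPM values were 2443, 1880 and 1785 in siCon, 1817, 1726 and 1737 in siHnf4a, 2186, 1515 and 982 in siCebpa, and 1395, 1347 and 1670 in the double knockdown. Mouse 3 was lowest by far in siCebpa and highest in the double knockdown. On the count scale the changes were −0.34 (95% interval −0.89 to 0.21), −0.36 (−0.91 to 0.19) and −0.55 (−1.10 to 0.0075).

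Cfb, which pairs with C3 in the alternative convertase, fell much further. It was 223, 298 and 341 TPM in siHnf4a, 457, 419 and 272 in siCebpa, and 180, 232 and 249 in the double knockdown, none of them reaching the lowest control value of 576 TPM. Cfb fell by 1.16 ± 0.24 with Hnf4a siRNA (adjusted p = 0.00947) and by 1.495 ± 0.24 with both (adjusted p = 0.00248), to 44.6% and 35.5% of control. Both calls held under each of the 21 alternatives run for them. With Cebpa siRNA the change was −0.58 ± 0.24 (adjusted p = 0.198), and no model called it. Relative to siCebpa the double knockdown was lower by 0.92 ± 0.24 (adjusted p = 0.0296), a call lost without siHnf4a mouse 2, siCebpa mouse 1 or 2 or double-knockdown mouse 1 or 2 (adjusted p 0.0508 to 0.0963). Cfp, properdin, which stabilises that convertase, was 3.21 to 4.25 TPM in siCon and 2.70 to 3.93 TPM in the double knockdown and passed in none.

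**Figure D3:**
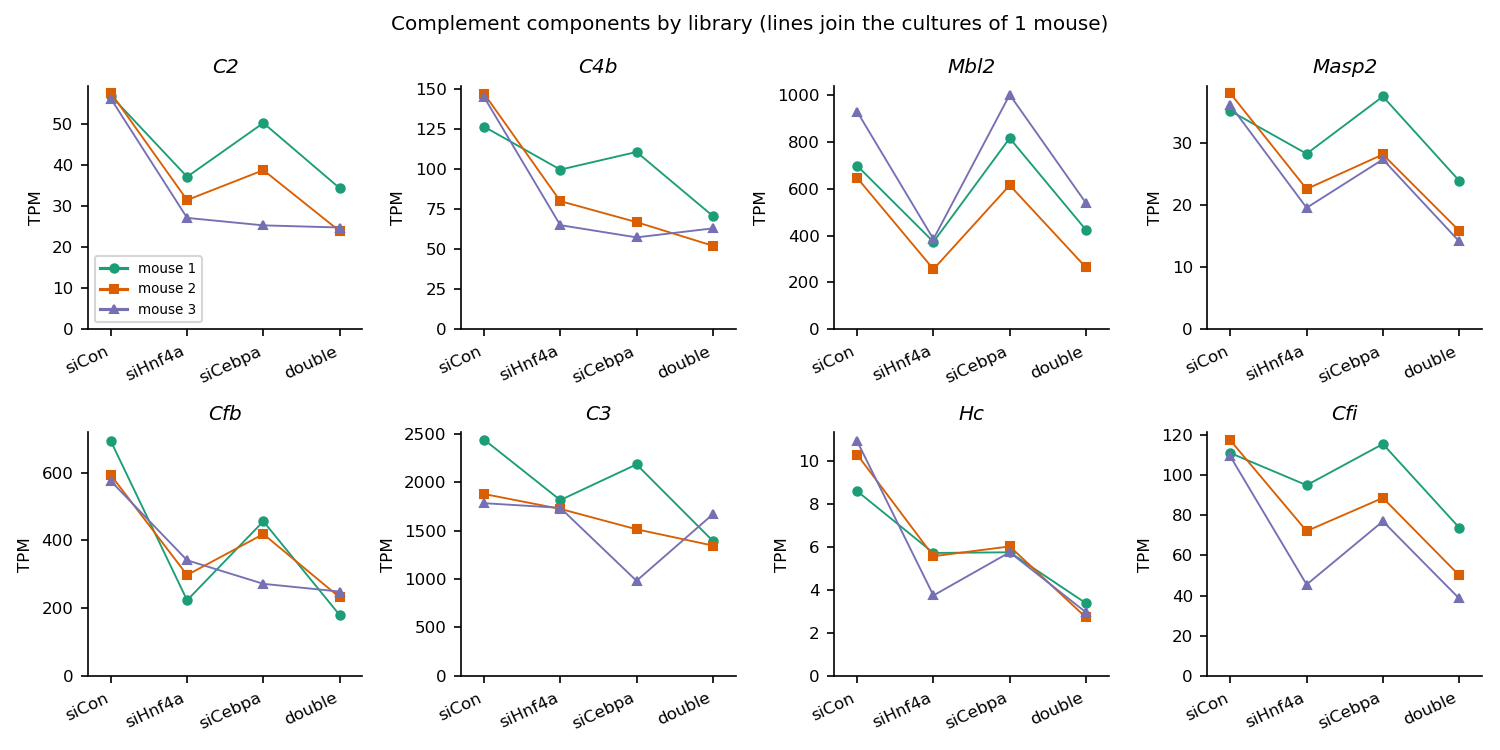
TPM of 8 complement components in every library (linear axes from 0), with lines joining the 4 cultures of each mouse. Cfb, C2, C4b and Hc are below control in all 3 mice in siHnf4a and in the double knockdown, Mbl2 is low only where Hnf4a siRNA was present, and the C3 ranges of siCon and siCebpa overlap.

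Of the 6 terminal components tested, 1 fell with Hnf4a siRNA, 1 with Cebpa siRNA and 2 with both (5, 2 and 5 in the mouse-block model). Hc, encoding C5, and Cd59a were the 2 members that the group-means model called with Cebpa siRNA alone. Hc (chr2:34983331-35061438) was 8.60, 10.3 and 10.9 TPM in siCon, 5.72, 5.57 and 3.74 in siHnf4a, 5.75, 6.02 and 5.75 in siCebpa, and 3.38, 2.72 and 2.95 in the double knockdown. The double knockdown values lay below those of every other group. Hc fell by 1.07 ± 0.20 with Hnf4a siRNA (adjusted p = 0.00506), by 0.81 ± 0.19 with Cebpa siRNA (adjusted p = 0.0418) and by 1.72 ± 0.20 with both (adjusted p = 0.000348), to 47.6%, 56.9% and 30.3% of control. On the log2 scale the double change was near the sum of the single ones, and the interaction was not called (counts below). The siHnf4a and double knockdown calls held under all 21 alternatives, whereas the siCebpa call was lost in 10 of 21, among them 9 in which 1 library was left out: siCon mouse 2 or 3, siHnf4a mouse 1 or 2, siCebpa mouse 2 or 3, or any double-knockdown mouse (adjusted p 0.0564 to 0.162). The fall of 0.91 ± 0.20 in the double knockdown relative to siCebpa (adjusted p = 0.0132) was lost without double-knockdown mouse 2 (adjusted p = 0.0680).

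C8a, C8b and C8g encode the 3 chains of C8, which starts membrane insertion. C8a (chr4:104815679-104876398) was 2.63, 2.12 and 0.677 TPM in siCon, 0.363, 0.124 and 0.0351 in siHnf4a, 1.42, 1.03 and 0.125 in siCebpa, and 0.229, 0.0347 and 0 in the double knockdown. It went down in every mouse in every knockdown, and mouse 1 was highest in all 4 groups. C8a fell by 4.28 ± 1.19 with both siRNAs (adjusted p = 0.0360), the steepest fall among the called members, on 0 to 147 estimated counts per library. The size depends on these few counts: without double-knockdown mouse 1 the value was −7.27, and on the log2(TPM + 1) scale it was −1.30. The call was lost without siCon mouse 1 or 2, siHnf4a mouse 2, siCebpa mouse 2 or double-knockdown mouse 2 or 3 (adjusted p 0.0522 to 0.125). With Hnf4a siRNA alone the mouse-block model called −3.60 ± 0.54 (adjusted p = 0.000702), against an adjusted p of 0.0658 without the block. DESeq2 (adjusted p = 0.0165) and limma on log2(TPM + 1) (−1.20, adjusted p = 0.0478) also called C8a there, as did edgeR without a low-count filter, with only the groups compared, without siCebpa mouse 3 or without double-knockdown mouse 1 (adjusted p 0.0286 to 0.0453).

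C8b was 9.60, 5.84 and 2.41 TPM in siCon, 3.54, 3.12 and 0.747 in siHnf4a, 7.93, 3.15 and 0.798 in siCebpa, and 2.998, 0.763 and 0.347 in the double knockdown. The groups overlapped, and each mouse was below its own siCon in each knockdown. The mouse-block model called it, with −1.32 ± 0.27 for Hnf4a siRNA (adjusted p = 0.00465) and −2.45 ± 0.30 for both (adjusted p = 0.000194), against 0.391 and 0.137 without the block. C8g, on chromosome 2, was 12.5, 7.79 and 7.59 TPM in siCon, 9.21, 5.67 and 4.70 in siHnf4a, 15.7, 7.41 and 8.25 in siCebpa, and 7.07, 4.32 and 3.36 in the double knockdown. It was called in the mouse-block model with Hnf4a siRNA (−0.57 ± 0.14, adjusted p = 0.0121) and with both (−0.99 ± 0.15, adjusted p = 0.000647).

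C6, which binds C5b, was 2.11, 0.305 and 0.250 TPM in siCon, 0.712, 0.162 and 0.110 in siHnf4a, 0.148, 0 and 0 in siCebpa, and 0.152, 0.162 and 0.0809 in the double knockdown. It rested on 128 estimated counts over all 12 libraries, 72 of them in siCon mouse 1. In the mouse-block model it was called in all 3 knockdowns (−1.52 ± 0.51, −3.45 ± 0.62 and −3.58 ± 0.64, adjusted p = 0.0434, 0.00471 and 0.00213). DESeq2 called C6 with both siRNAs (adjusted p = 0.0257), as did edgeR without a low-count filter (0.0367). Without siCon mouse 1 the siHnf4a value in the group-means model was 0.0026, so in that model the change rested on 1 library. The mouse-block model was not refitted without that library. C9, the pore-forming unit, was 4.499, 0.991 and 0.656 TPM in siCon and 2.48, 0.704 and 0.510 TPM in the double knockdown, and passed in no comparison with either model.

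Of the 5 fluid-phase regulators 0 fell with either siRNA alone and 2 (C4bp and Cfi) with both, and the mouse-block model called 4, 3 and 5. C4bp, the C4b-binding protein, was 72.1, 66.0 and 43.9 TPM in siCon, 37.2, 35.8 and 20.4 in siHnf4a, 52.5, 34.1 and 23.4 in siCebpa, and 32.2, 23.0 and 17.0 in the double knockdown. C4bp fell by 1.34 ± 0.32 with both (adjusted p = 0.0185), to 39.5% of control. With 1 siRNA the mouse-block model called it and the group-means model did not, −0.92 ± 0.10 for Hnf4a (adjusted p = 0.000120, against 0.0801) and −0.62 ± 0.10 for Cebpa (adjusted p = 0.00303, against 0.344). With Hnf4a siRNA DESeq2 also called C4bp (adjusted p = 0.0271), as did edgeR without a low-count filter, with only the groups compared or without siCebpa mouse 1 (adjusted p 0.0418 to 0.0481). Cfi, factor I, the protease that inactivates C3b and C4b, was 111, 117 and 109 TPM in siCon, 94.97, 72.1 and 45.5 in siHnf4a, 116, 88.6 and 77.0 in siCebpa, and 73.9, 50.1 and 38.6 in the double knockdown.

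Cfi fell by 1.15 ± 0.29 with both siRNAs against siCon (adjusted p = 0.0247) and by 1.12 ± 0.29 against siCebpa (adjusted p = 0.0299). With Cebpa siRNA alone its value was −0.022 ± 0.288 (adjusted p = 0.978), and with Hnf4a siRNA alone only the mouse-block model called it (−0.79 ± 0.15, adjusted p = 0.00303, against 0.122). The C4bp call was lost without siCon mouse 1 or 2 or double-knockdown mouse 2 or 3 (adjusted p 0.0527 to 0.0741). The Cfi call against siCon was lost without any 1 siCon mouse or double-knockdown mouse 2 or 3 (adjusted p 0.0538 to 0.102). Against siCebpa it was lost without siCon mouse 2, siHnf4a mouse 2, siCebpa mouse 1 or 2 or double-knockdown mouse 2 or 3 (adjusted p 0.0518 to 0.123), and with limma on TPM (adjusted p = 0.0888).

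Vtn, vitronectin, and Serping1, the C1 inhibitor, were called by the mouse-block model and not by the group-means model. Vtn was 253, 215 and 126 TPM in siCon, 131, 77.1 and 50.01 in siHnf4a, 216, 105 and 57.2 in siCebpa, and 98.3, 39.1 and 39.5 in the double knockdown. Its mouse-block changes were −1.25 ± 0.19, −0.63 ± 0.19 and −1.80 ± 0.20 (adjusted p = 0.000925, 0.0458 and 0.000105), against 0.189, 0.685 and 0.0652 without the block. With both siRNAs DESeq2 also called Vtn (adjusted p = 0.0428), as did edgeR without a low-count filter, with only the groups compared, or without siCebpa mouse 1, siCebpa mouse 3 or double-knockdown mouse 1 (adjusted p 0.0261 to 0.0464). Serping1 was 433, 314 and 256 TPM in siCon, 356, 245 and 196 in siHnf4a, 340, 196 and 114 in siCebpa, and 300, 159 and 141 in the double knockdown. Each mouse went down in each knockdown, and the mouse-block model called siCebpa (−0.56 ± 0.13, adjusted p = 0.0173) and the double knockdown (−0.79 ± 0.13, adjusted p = 0.00143).

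Clu was 3685, 5471 and 8131 TPM in siHnf4a, 3078, 6497 and 10843 in siCebpa, and 3005, 5127 and 10118 in the double knockdown, against 4883, 9529 and 13398 in siCon. Mouse 3 was highest in all 4 groups. The mouse-block model called siHnf4a (−0.62 ± 0.14, adjusted p = 0.00766) and the double knockdown (−0.64 ± 0.14, adjusted p = 0.00644), where the group-means model gave adjusted p of 0.463 and 0.542.

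For 13 of the 31 tested genes the same mouse had the highest TPM in all 4 groups. Mouse 1 did so for C1s1, C1rl, C8a, C8b, C8g, C9, C4bp, Serping1 and Vtn, 9 genes, mouse 3 for C1qa, C1qb, Mbl2 and Clu (4), and mouse 2 for none. Over all 15090 tested genes the shares were 8.30% for mouse 1, 6.61% for mouse 3 and 3.70% for mouse 2. The order turned over for others: Cfb was 1.205, 0.654, 1.68 and 0.722 times as high in mouse 1 as in mouse 3 in siCon, siHnf4a, siCebpa and the double knockdown. C9 was 6.86, 14.1, 9.68 and 4.85 times as high in mouse 1 as in mouse 3 in the same groups. Clu ran the other way, at 0.364, 0.453, 0.284 and 0.297 times. These orders are descriptions of 3 animals and their preparations, and their source was not tested.

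**Figure D4:**
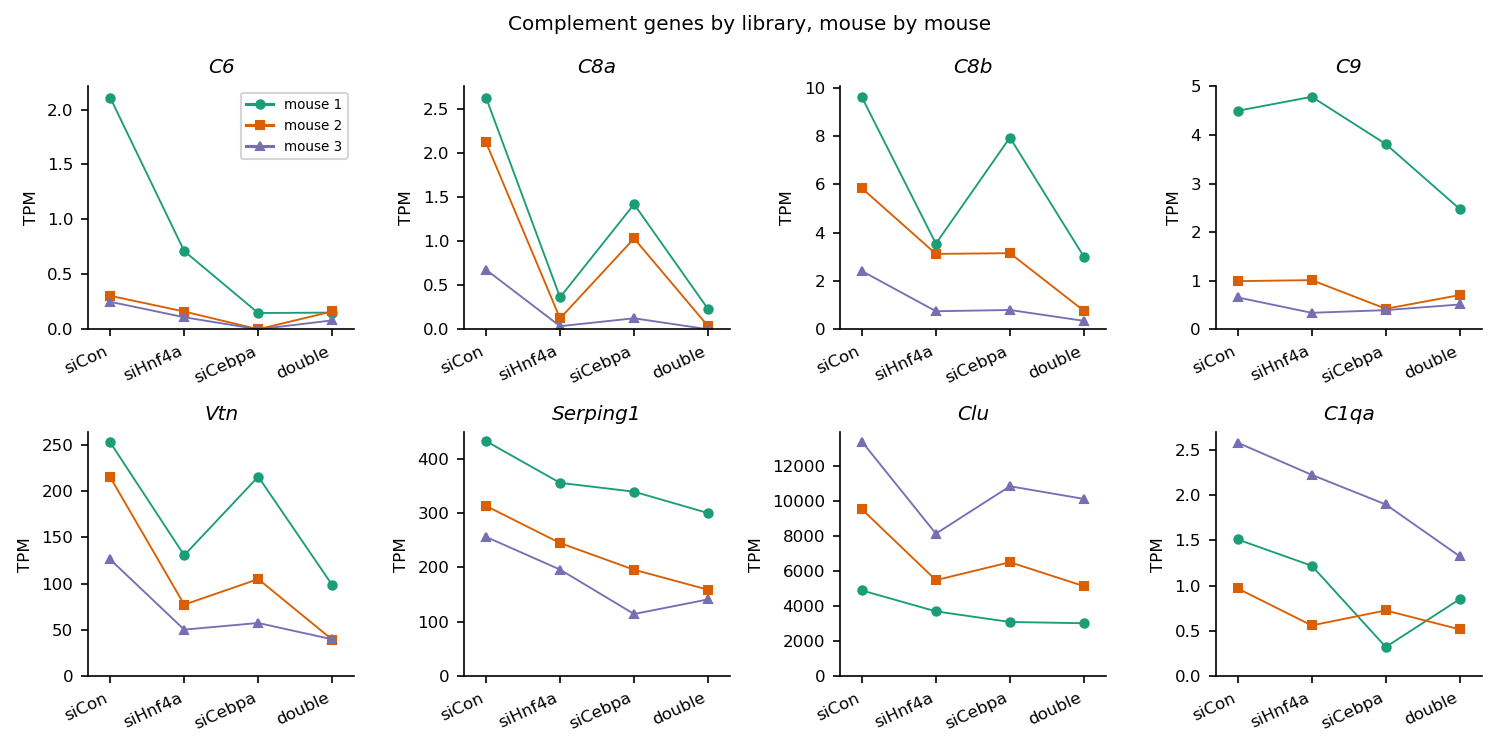
TPM of 8 complement genes in every library (linear axes from 0), lines joining the 4 cultures of each mouse. Mouse 1 is highest for C8a, C8b, C9, Vtn and Serping1 and mouse 3 for Clu and C1qa in every group, while for C8a, C8b and Vtn each mouse is lower in the double knockdown than in siCon, with mouse 1 higher in siCebpa than in siHnf4a.

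Of the 3 membrane regulators 0, 1 and 1 fell with Hnf4a siRNA, Cebpa siRNA and both (1, 2 and 1 in the mouse-block model). Cd59a, the membrane inhibitor of pore assembly (chr2:104095801-104115354), was 18.3, 18.2 and 22.2 CPM (counts scaled to library size, not length-corrected) in siCon, 17.3, 14.6 and 15.7 in siHnf4a, 9.73, 9.35 and 8.76 in siCebpa, and 13.5, 13.8 and 14.3 in the double knockdown. The siCebpa values were lowest, without overlap with any other group. Cd59a fell by 1.08 ± 0.11 with Cebpa siRNA (adjusted p = 0.00116), to 47.4% of control, a call that held under all 21 alternatives. It fell by 0.50 ± 0.11 with both (adjusted p = 0.0115), a call lost without siCon mouse 3 (adjusted p = 0.0529). It was higher in siHnf4a than in siCebpa by 0.77 ± 0.11 (adjusted p = 0.00123) and higher in the double knockdown than in siCebpa by 0.58 ± 0.11 (adjusted p = 0.00695). With Hnf4a siRNA alone its −0.30 ± 0.11 was called only with the block (adjusted p = 0.0879 without it, 0.0475 with it).

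The Cd59a values depended on the scale. In TPM they were 19.7, 20.0 and 24.2 in siCon, 20.9, 20.0 and 20.3 in siHnf4a, 13.0, 13.3 and 12.6 in siCebpa, and 14.2, 16.1 and 17.6 in the double knockdown. Estimated counts per TPM, which follow the average length of the transcripts assigned to a gene, were 68.0% to 72.2% of the siCon mean in siCebpa, 79.9% to 87.1% in siHnf4a and 85.5% to 101% in the double knockdown. The annotation lists 3 Cd59a transcripts, of 1806, 1691 and 681 bases. With limma on log2(TPM + 1), the fall with Cebpa siRNA was −0.67 (adjusted p = 0.00865) and that with both −0.39 (adjusted p = 0.0312), but the double knockdown was no longer called higher than siCebpa (0.28, adjusted p = 0.106). Medians over all genes in these 3 comparisons on that scale were −0.12, −0.0045 and 0.095. Cebpa itself was 3.14-fold higher in the double knockdown than in siCebpa, and the part of this in the Cd59a difference was not tested.

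**Figure D5:**
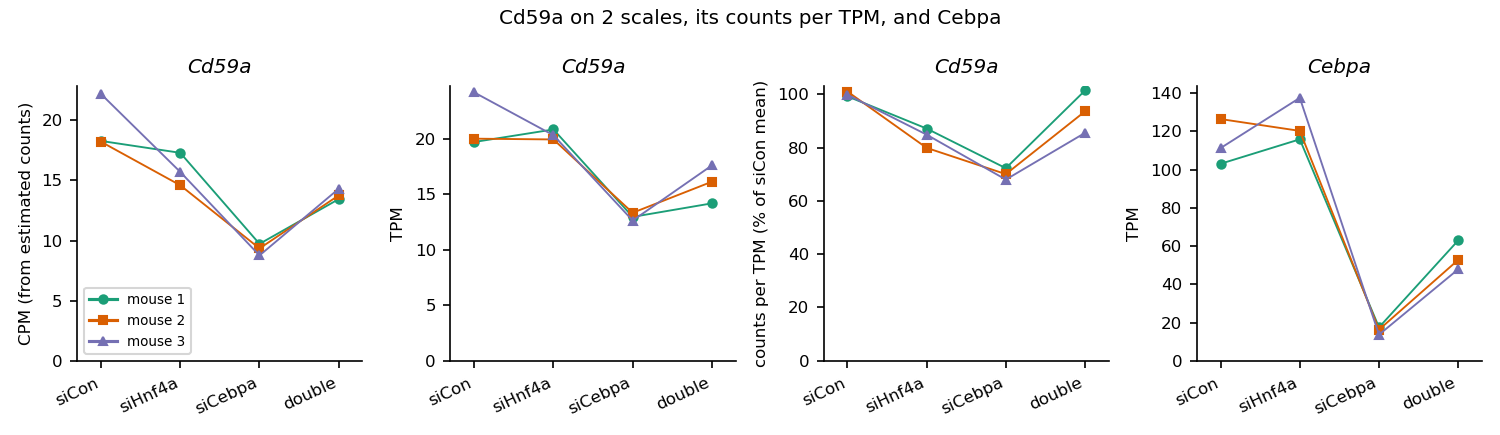
Cd59a in CPM, Cd59a in TPM, its counts per TPM in percent of the siCon mean, and Cebpa in TPM, in every library (lines join the cultures of a mouse, axes start at 0). Cd59a is lowest in siCebpa on both scales (8.76 to 9.73 CPM, 12.6 to 13.3 TPM), and counts per TPM and Cebpa are lowest there too.

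Cd55, the decay-accelerating factor, was 1.18, 1.34 and 1.33 TPM in siCon, 0.915, 1.36 and 1.30 in siHnf4a, 0.786, 0.544 and 0.722 in siCebpa, and 0.818, 0.939 and 2.04 in the double knockdown. It was called lower with Cebpa siRNA only in the mouse-block model (−0.90 ± 0.28, adjusted p = 0.0474, against 0.161). Cd46, a cofactor for factor I that in mice is known mainly from testis, was at 0.146 to 0.454 TPM over the 12 libraries. It was 0.402, 0.300 and 0.311 TPM in siHnf4a and 0.154, 0.454 and 0.226 TPM in siCebpa, where the ranges overlapped, while in CPM they did not (1.55, 1.28 and 1.15 against 0.735, 0.643 and 0.885). The log2 difference between them was 0.81 ± 0.25 (adjusted p = 0.0470), a call lost in 11 of the 12 fits that left out 1 library (every one except double-knockdown mouse 2, adjusted p 0.0530 to 0.140) and with DESeq2 (adjusted p = 0.0938).

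The receptors were near the limit of detection. C3ar1, the C3a receptor, was 0.190, 0.244 and 0.296 TPM in siCon, 0.212, 0.0287 and 0.171 in siHnf4a, 0.0930, 0.0546 and 0.165 in siCebpa, and 0.109, 0.0305 and 0.101 in the double knockdown, from 2 to 20 estimated counts per library. It was called lower in the double knockdown only in the mouse-block model (−1.63 ± 0.51, adjusted p = 0.0352, against 0.144), beside the macrophage markers given above, most of them lower. C5ar1, the C5a receptor, had 1 to 13 estimated counts per library and was not tested.

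Adding Cebpa siRNA to Hnf4a knockdown moved no complement gene past the threshold. In the double knockdown against siHnf4a 0 of 31 were called by edgeR in either model, by DESeq2 or by limma on TPM, and 0.00663% of all genes (1 gene, Cebpa itself in the group-means model) were called in each edgeR model. Unadjusted p was below 0.05 for 2 of them in the group-means model and 12 in the mouse-block model, all lower. The share of all genes below that unadjusted threshold was not counted, so no result is drawn from these numbers. Hc had the value −0.65 ± 0.20 and Cd46 −0.86 ± 0.25, each below siHnf4a in all 3 mice. That was so for 17 of the 31 tested genes.

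Adding Hnf4a siRNA to Cebpa knockdown lowered 5 (Mbl2, Masp2, Cfb, Hc and Cfi) and raised 1 (Cd59a) of the 31, where 13.0% of all genes were called. In the mouse-block model 11 were lower and 1 higher (27.3% of all genes), the additions being C2, C8a, C8b, C8g, C4bp and Vtn. C8g was lower by 1.36 ± 0.14 there (adjusted p = 0.000121, against 0.0511 without the block). In siHnf4a against siCebpa directly, 1 was lower (Mbl2) and 2 were higher (Cd59a and Cd46), where 16.2% of all genes were called. The mouse-block model called 8 lower and 2 higher (31.2%), the additional ones being C2, Masp2, C8a, C8g, C4bp, Cfi and Vtn.

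The interaction asks whether the change with both siRNAs departed from the sum of the single changes on the log2 scale. In the group-means model 0 of 31 were called (0.0861% of all genes), and limma on TPM called 0. Unadjusted p was below 0.05 for 2 in the group-means model, a threshold not counted over all genes. The mouse-block model called 1 (3.82% of all genes), and so did DESeq2: Cd59a, which fell less with both siRNAs than the single changes sum to. Its interaction was 0.88 ± 0.15 in both edgeR models (adjusted p = 0.0767, and 0.0141 with the block). On the log2(TPM + 1) scale it was 0.33 (limma, adjusted p = 0.443), beside a median over all genes of 0.12. The residual Cebpa level differed between the groups as given above.

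Other genes of the pathway were counted from a second list of 23, which holds ficolins, the paralogs C1rb, C1s2 and Cd59b, complement receptors, carboxypeptidase N, pentraxins, thrombomodulin and protein S, and 16 of them were tested. With Hnf4a siRNA 1 fell and none rose (4 lower in the mouse-block model). With Cebpa siRNA 1 rose and none fell (1 higher and 4 lower with the block), and in the double knockdown 3 fell (7 with the block). Over all genes 14.5%, 4.67% and 14.0% were called in these comparisons, and 30.0%, 16.8% and 29.5% with the block. Cpn2, the regulatory subunit of carboxypeptidase N, which inactivates the anaphylatoxins, was 5.99, 7.44 and 4.77 TPM in siCon, 1.60, 1.49 and 0.431 in siHnf4a, and 0.796, 0.402 and 0.0816 in the double knockdown. Cpn2 fell by 2.34 ± 0.64 with Hnf4a siRNA (adjusted p = 0.0324) and by 3.80 ± 0.69 with both (adjusted p = 0.00482), to 19.8% and 7.20% of control. The call with both held whichever library was left out, but that with Hnf4a siRNA was lost without any 1 siCon or siHnf4a mouse or double-knockdown mouse 2 (adjusted p 0.0521 to 0.107).

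Cpn1, the catalytic subunit, fell with both siRNAs by 0.58 ± 0.16 (adjusted p = 0.0357), from 94.6, 100.0 and 96.3 TPM to 78.0, 65.9 and 47.4 TPM. The Cpn1 call was lost without any 1 siCon mouse, siHnf4a mouse 2, siCebpa mouse 2 or double-knockdown mouse 2 or 3 (adjusted p 0.0554 to 0.106). Pros1, protein S, an anticoagulant cofactor, fell by 0.59 ± 0.16 (adjusted p = 0.0360), a call lost without siCon mouse 1 or 3, siHnf4a mouse 2 or any 1 double-knockdown mouse (adjusted p 0.0603 to 0.141). C1qbp, a mitochondrial protein also known to bind the C1q head, rose by 0.47 ± 0.10 with Cebpa siRNA (adjusted p = 0.0257), from 183, 148 and 157 TPM to 187, 202 and 206 TPM. The C1qbp call was lost without siCon mouse 2 or 3, siHnf4a mouse 2 or siCebpa mouse 2 or 3 (adjusted p 0.0503 to 0.12). It was made in 13 of the 21 alternatives, and limma on TPM called 0 genes of this list higher with Cebpa siRNA.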

How the data were processed

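Total RNA from 12 cultures was sequenced on the BGISEQ-500, per the labels' protocols. The submitters' processing notes name Trim Galore 0.6.4, kallisto 0.4.6 and GRCm38.p6. The deposited table gives expected counts, and the authors' TPM values, per gene and library. Expected counts were rounded, and genes with low counts were removed by filterByExpr, leaving 15090. edgeR 4.0.16 (R 4.3.3) fitted all 12 libraries by quasi-likelihood with TMM factors and 4 group means, with Benjamini-Hochberg adjustment over all genes tested at 0.05. A second model added the mouse, because the series' design text says that the cultures came from 3 mice. The 18 same-mouse pairs correlated in their deviations from group means at 0.156 to 0.684. Pairs of different mice in different groups gave −0.616 to 0.203, so the ranges overlap. Each of the 12 libraries correlated best with a library of its own mouse. DESeq2 1.42.0, limma 3.58.1 on log2(TPM + 1), other filters and leaving out each library were alternatives. Scripts were tested on simulated data. Genes are named where they are members, or where another complement gene passed the group-means test. Members and lists were chosen with earlier results of these data known. RefSeq gave the promoter sequences, and GENCODE M21 the gene positions.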

Additional observations from a re-analysis of the deposited data

Results flagged for a closer look

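Cd59a differed between its responses to the siRNAs: with the mouse as a block, the change with Cebpa siRNA was smaller in the presence of Hnf4a siRNA than in its absence, by an interaction of 0.876 on the log2 scale (edgeR, adjusted p = 0.0141, and 0.0767 without the block). Cebpa had an interaction of 1.497 in the same direction (adjusted p = 0.0131 without the block), and its part in the Cd59a value was not tested.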

How the results depend on the processing

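All 25 calls of the group-means model were also made with the mouse as a block, and 8 of the 25 held in every alternative run. With the replicate block, by the pairing through the mouse, the counts of called members rose from 4 to 17 (siHnf4a against siCon), 2 to 12 (siCebpa), 10 to 19 (double knockdown), 6 to 12 (double knockdown against siCebpa), 3 to 10 (siHnf4a against siCebpa) and 0 to 1 (interaction). For siHnf4a the count was 7 without a low-count filter (5.38% of all genes called), 8 with DESeq2 (18.4%) and 7 with only the groups compared in the fit (13.3%). That last setting gave 1 for siCebpa (0.313%) and 2 for the double knockdown against siCebpa (5.90%), and DESeq2 gave 1 for the interaction (2.31%). Leaving out 1 library gave 2 to 7 for siHnf4a (2 without siHnf4a mouse 2 or 3, 7 without siCebpa mouse 1), 1 to 5 for siCebpa (5 without siCebpa mouse 1, 1 without siCon mouse 2 or 3, siHnf4a mouse 1 or 2, siCebpa mouse 2 or 3 or any double-knockdown mouse), 4 to 11 for the double knockdown (4 without double-knockdown mouse 2, 5 without siCon mouse 2, 6 without double-knockdown mouse 3), 1 to 6 for it against siCebpa (1 without double-knockdown mouse 2, 3 without siCebpa mouse 2), 2 to 3 for siHnf4a against siCebpa and 0 for the rest. In the same fits the share of all genes called also moved, from 7.28% to 15.9% for siHnf4a and 0.740% to 5.18% for siCebpa. It was 7.86% to 15.6% for the double knockdown, 6.83% to 13.8% for it against siCebpa and 7.34% to 18.7% for siHnf4a against siCebpa. Direction reversed for C6 with Hnf4a siRNA without siCon mouse 1 (0.0026, range −2.65 to 0.0026 over the libraries left out). The same held for C4bp in siHnf4a against siCebpa without siCebpa mouse 1 (0.011, range −0.579 to 0.011). Neither of them was called in the group-means model, though both were with the mouse as a block, and the cause was not tested. On the TPM scale the median of all genes shifted by −0.118 with Cebpa siRNA. Low counts limit C6, C3ar1 and Cd46.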
